A study of Homo sapiens with 18 samples.

Results

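The 7 genes for the cyclin-dependent kinase (CDK) inhibitors and the 3 genes of the retinoblastoma family were followed through 18 RNA-seq libraries of IMR90, a line of human lung fibroblasts. The 10 genes (CDKN1A, CDKN1B, CDKN1C, CDKN2A, CDKN2B, CDKN2C, CDKN2D, RB1, RBL1 and RBL2) were chosen by name from the 57500 genes of the count table, all 10 were found, and all 10 passed the filter on low counts that left 16994 genes. The 6 groups held 3 libraries each. Prol cells were proliferating and not irradiated. Sen (IR) cells were made senescent by X-rays. Sen (IR) + CCCP cells were irradiated and then treated with CCCP, an uncoupler that collapses the mitochondrial membrane potential, in a line engineered so that such mitochondria are cleared. The study's methods describe both proliferating and irradiated cells of that engineered line. The titles of the Prol and Sen (IR) libraries do not say whether those cells belonged to it. The remaining 3 groups were irradiated, CCCP-treated cells given sodium acetate, transfected with mtDNA from the mitochondrial fraction of IMR90 cells, or given both. Per the study's methods, acetate was given every other day, and mtDNA was transfected with a reagent on day 10 after irradiation. Acetate and mtDNA thus differed in their timing. No title names cells given the reagent without mtDNA, so an effect of mtDNA cannot be told apart from that of transfection. All groups were of IMR90 cells in culture. If Prol and Sen (IR) were not of the engineered line, a difference between lines could not be told apart from that of CCCP. The p-values rest on the spread between libraries of the same group, which was estimated by a single fit to all 18 libraries. The study describes its replicates as independent experiments, while the labels do not say whether the 3 libraries of a group came from separate cultures.

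CDKs bound to cyclins drive the cell from G1 through S phase to mitosis, and a first step is the phosphorylation of the retinoblastoma family, whose members RB1 (pRB), RBL1 (p107) and RBL2 (p130) hold E2F transcription factors in check. Inhibitors of the CIP/KIP family, CDKN1A (p21), CDKN1B (p27) and CDKN1C (p57), bind cyclin-CDK complexes broadly, whereas inhibitors of the INK4 family, CDKN2A (p16), CDKN2B (p15), CDKN2C (p18) and CDKN2D (p19), bind CDK4 and CDK6. In senescent fibroblasts p21 and p16 are the inhibitors usually taken as markers of the arrest.

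Each library held between 24624886 and 46224280 counts. Levels of a gene are given as CPM, counts scaled to library size after TMM, and differences as edgeR log2 fold changes with their standard error and a Benjamini-Hochberg adjusted p over all 16994 genes. A gene was called at an adjusted p under 0.05. Transcripts of the 13 proteins encoded by mtDNA made up 2.62% ± 0.295 of a Prol library (SD, n = 3), 2.11% ± 0.468 of a Sen (IR) library and 0.122% ± 0.0116 after CCCP. Among the other CCCP-treated libraries replicate 2 of acetate plus mtDNA stood highest, at 0.237%. The 8 fibroblast markers summed to between 3773 and 17722 TPM in every library, and the summed TPM of endothelial and leukocyte markers did not pass 2.00 and 5.34. Epithelial markers, which include keratins, summed to between 37.6 and 159 TPM. The fibroblast sum fell from 15689.5–17722 TPM in Prol to 9988–12002 in Sen (IR) and 5491–5682 in Sen (IR) + CCCP. All 6 cycling-cell genes (MKI67, TOP2A, PCNA, MCM2, RRM2 and LMNB1) were lower in Sen (IR) than in Prol, higher in Sen (IR) + CCCP than in Sen (IR), and lower again with acetate. In bulk RNA, a change in the share of cells that carry a transcript and a change in the amount per cell cannot be told apart.

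CDKN1A, which encodes p21 and lies at chr6:36676460-36687337 (GRCh38, plus strand), was lowest in Prol, with 679, 689.5 and 725 CPM. It stood at 949, 981 and 1040.0 CPM in Sen (IR) and at 1065, 1103 and 1129.9 CPM in Sen (IR) + CCCP. Each of these groups lay above the one before it without overlap, so the transcript was higher after irradiation and higher again after CCCP. With acetate it reached 1773, 1885 and 1894 CPM, and with acetate plus mtDNA 1705, 1749.9 and 1816 CPM, while mtDNA alone gave 1111, 1123 and 1215 CPM, which overlapped Sen (IR) + CCCP. The rise from Prol to Sen (IR) was 1.42-fold (log2 0.50, SE 0.05, adjusted p = 1.76e-08), and the further step with CCCP was 1.11-fold (log2 0.15, SE 0.05, adjusted p = 0.0113), a call that was lost when only these groups were fitted (adjusted p = 0.0509). Acetate raised CDKN1A 1.68-fold over Sen (IR) + CCCP (log2 0.75, SE 0.05, adjusted p = 2.81e-11), whereas the difference with mtDNA was log2 0.06 (SE 0.05, adjusted p = 0.43) and that of acetate plus mtDNA over acetate −0.07 (SE 0.05, adjusted p = 0.36). The log2 CPM of CDKN1A ran most like those of NQO1, GDF15 and BMP2 over the 18 libraries (Pearson r = 0.991, 0.990 and 0.987), a description in which all points share the same 6 groups.

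CDKN1B, which encodes p27 and lies at chr12:12685498-12722369 (plus strand), took another course. Prol libraries held 38.2, 38.3 and 42.3 CPM, Sen (IR) 22.5, 23.4 and 25.0, and Sen (IR) + CCCP 28.4, 28.6 and 28.8. The gene fell 1.68-fold on irradiation (log2 −0.75, SE 0.05, adjusted p = 1.12e-10), which set it apart in direction from CDKN1A, and rose 1.21-fold with CCCP (log2 0.28, SE 0.05, adjusted p = 0.000124). Acetate took it to 52.7, 54.7 and 54.7 CPM and acetate plus mtDNA to 57.1, 58.2 and 58.7, above every Prol library. mtDNA alone gave 33.8, 34.3 and 36.4 CPM, above every Sen (IR) + CCCP library and below every Prol library. Acetate raised CDKN1B 1.89-fold (log2 0.92, SE 0.05, adjusted p = 1.77e-12) and mtDNA 1.22-fold (log2 0.29, SE 0.05, adjusted p = 0.000548). Sen (IR) + CCCP stayed below Prol by the counts (log2 −0.47, SE 0.05, adjusted p = 5.56e-08). On the log2(TPM + 1) scale that difference was 0.04 (limma adjusted p = 0.441), where the median of all tested genes was 0.42.

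CDKN1C, which encodes p57 and is an imprinted gene at chr11:2883213-2885775 (minus strand), was the least certain of the CIP/KIP genes, with 47 to 218 counts in a library. Prol held 2.62, 2.77 and 3.17 CPM, Sen (IR) 1.62, 1.88 and 2.18, and Sen (IR) + CCCP 2.48, 3.12 and 4.16. It fell 1.48-fold on irradiation (log2 −0.56, SE 0.21, adjusted p = 0.0258) and rose 1.71-fold with CCCP (log2 0.77, SE 0.20, adjusted p = 0.00202). The fall did not pass without replicate 1 of Prol (adjusted p = 0.072) or without replicate 3 of Sen (IR) (adjusted p = 0.0914). With acetate the libraries held 3.70, 4.11 and 4.80 CPM, which overlapped Sen (IR) + CCCP (log2 0.37, SE 0.18, adjusted p = 0.0822), and this difference passed at log2 0.63 without replicate 2 of Sen (IR) + CCCP and at 0.47 without replicate 1 of the acetate group. With acetate plus mtDNA they held 3.44, 4.51 and 5.23 CPM, which also overlapped Sen (IR) + CCCP (log2 0.44, SE 0.18, adjusted p = 0.041), a call that was lost without replicate 1 or replicate 3 of either group (adjusted p from 0.0645 to 0.198). mtDNA alone gave 2.42, 3.20 and 3.34 CPM, which overlapped Sen (IR) + CCCP (log2 −0.13, SE 0.19, adjusted p = 0.709). The genes most like it were ESYT2, ASB1 and AC037459.3 (r = 0.926, 0.915 and 0.900).

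**Figure D1:**
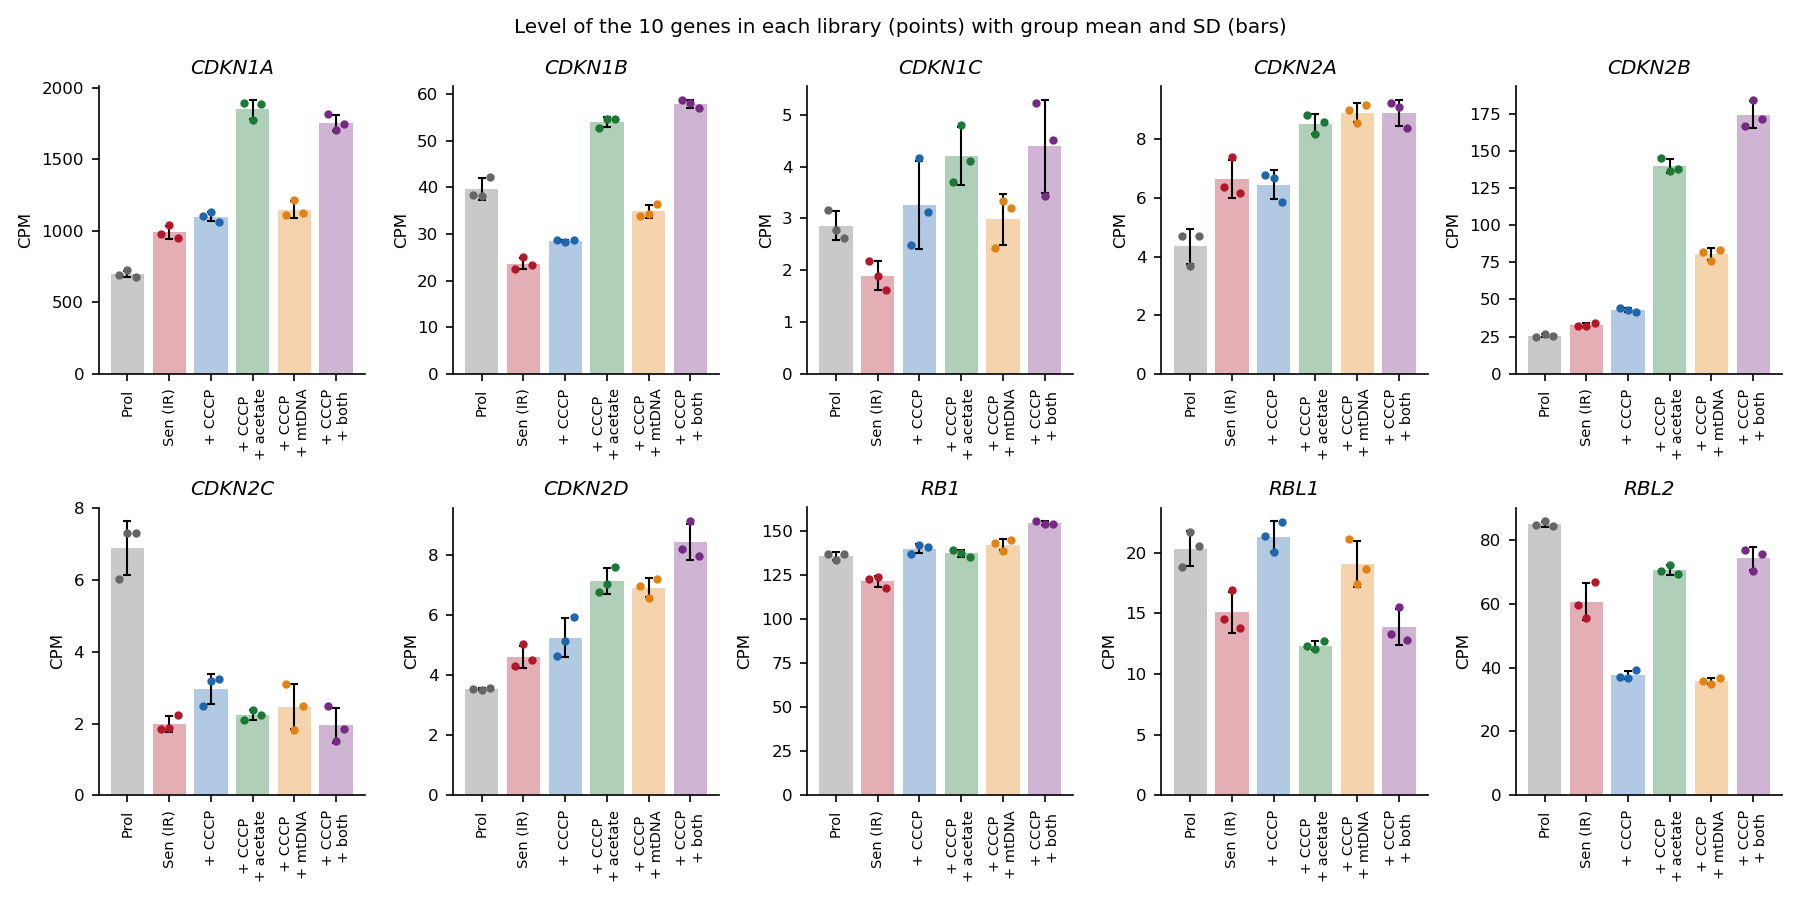
CPM of each of the 10 genes (y axes from 0, 1 panel per gene) in the 6 groups, with 1 point per library and bars for the group mean with SD (n = 3). CDKN2B and CDKN1A stand highest in the groups given acetate, CDKN2C stands highest in Prol, and RBL2 drops with CCCP and rises with acetate while RBL1 does the reverse.

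CDKN2B, which encodes p15 and lies at chr9:22002903-22009305 (minus strand), showed the largest change of the 10 genes in the CCCP-treated groups. Its counts ran from 632 to 6564 per library. Prol held 24.7, 25.4 and 26.5 CPM, Sen (IR) 31.8, 32.1 and 34.1, and Sen (IR) + CCCP 41.3, 42.8 and 44.2. mtDNA took it to 76.2, 82.3 and 83.2 CPM, acetate to 136, 138 and 145, and acetate plus mtDNA to 167, 171 and 184. None of the 6 groups overlapped another, so the order of levels was Prol, Sen (IR), Sen (IR) + CCCP, mtDNA, acetate, and acetate plus mtDNA. The rise was 1.28-fold on irradiation (log2 0.35, SE 0.06, adjusted p = 1.27e-05) and 1.31-fold with CCCP (log2 0.39, SE 0.05, adjusted p = 1.36e-06). Over Sen (IR) + CCCP it was 1.88-fold with mtDNA (log2 0.91, SE 0.05, adjusted p = 6.87e-11), 3.26-fold with acetate (log2 1.71, SE 0.05, adjusted p = 1.67e-16) and 4.07-fold with acetate plus mtDNA (log2 2.02, SE 0.05, adjusted p = 1.49e-17). Adding mtDNA to acetate raised it 1.25-fold (log2 0.32, SE 0.05, adjusted p = 0.000155).

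The effects of acetate and mtDNA on CDKN2B did not add on the log2 scale. The rise with acetate was log2 1.71 without mtDNA and 1.11 with it, and the interaction was −0.59 (SE 0.07, adjusted p = 0.000117), called in 0.659% of all genes (112 genes) and in no other of the 10. Leaving out 1 library at a time gave −0.64 to −0.57, past the threshold each time. On the CPM scale the single rises were 97.0 ± 2.89 (SE) with acetate and 37.8 ± 2.35 with mtDNA, which sum to 135, beside a rise of 131 ± 5.32 with acetate plus mtDNA. The combined rise minus that sum was −3.30 ± 6.38 CPM (SE), smaller than its error, so a departure from additivity was measured on the log2 scale and not in CPM. CDKN2A had an interaction of −0.40 (SE 0.14) that did not pass (adjusted p = 0.24), and the rises of this gene in CPM were 2.09 ± 0.347 with acetate, 2.46 ± 0.340 with mtDNA and 2.46 ± 0.384 with acetate plus mtDNA (SE). For RB1 the interaction of 0.15 (SE 0.06, adjusted p = 0.288) passed by the DESeq2 Wald test (0.18, adjusted p = 0.0216).

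CDKN2A lies beside CDKN2B at chr9:21967752-21995301 (minus strand) and encodes p16 and, from another first exon, the protein p14ARF. Gene-level counts sum both transcripts, so the values below cannot be given to either. Counts were low, from 99 to 410 in a library. Prol held 3.66, 4.69 and 4.70 CPM, Sen (IR) 6.16, 6.38 and 7.40, and Sen (IR) + CCCP 5.88, 6.69 and 6.77. Irradiation raised it 1.51-fold (log2 0.60, SE 0.11, adjusted p = 6.16e-05), and Sen (IR) + CCCP overlapped Sen (IR) (log2 −0.03, SE 0.10, adjusted p = 0.789). Acetate gave 8.17, 8.60 and 8.84 CPM, mtDNA 8.55, 8.99 and 9.17, and acetate plus mtDNA 8.40, 9.09 and 9.23. These 3 groups overlapped one another and all lay above Sen (IR) + CCCP, by 1.32-fold with acetate (log2 0.40, SE 0.10, adjusted p = 0.0013), 1.38-fold with mtDNA (log2 0.46, SE 0.10, adjusted p = 0.00205) and 1.38-fold with acetate plus mtDNA (log2 0.46, SE 0.10, adjusted p = 0.000345). Genes with the most similar course were SYF2, RND3 and NAMPT (r = 0.959, 0.957 and 0.952), and for CDKN2B they were CPEB4, BNIP2 and TIPARP (r = 0.984, 0.984 and 0.983).

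The antisense transcript CDKN2B-AS1 shares 593 exonic bases with CDKN2A, 15.3% of that gene's exonic length on the opposite strand. The study's methods describe counting by strand where a library was stranded, but not whether these libraries were. The antisense transcript had 7 to 33 counts in a library and passed in no comparison. MTAP, an enzyme of methionine salvage on the other side of CDKN2A, rose with CCCP over Sen (IR) (log2 0.87, SE 0.05, adjusted p = 3.18e-13), where CDKN2A did not, and gave −0.05 (SE 0.04, adjusted p = 0.386) with acetate, where CDKN2A and CDKN2B rose. Of 14 genes next to the INK4 locus, CDKN1A, CDKN1C and RB1, 9 were tested. With CCCP over Sen (IR) 3 rose and 5 fell, beside 65.2% of all genes called. With acetate 2 rose and 2 fell, beside 57.1%, and with mtDNA none passed, beside 18.1%.

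The promoter windows of CDKN1A and CDKN2B are shown because these 2 inhibitors carried the largest level and the largest change. Each holds 250 bases before to 50 after the transcription start, from RefSeq (GRCh38.p14), 5′ to 3′ on the gene's strand, at chr6:36678464-36678763 (plus) and chr9:22009256-22009555 (minus), with the GC box, the word GGGCGG on either strand, in capitals.
CDKN1A: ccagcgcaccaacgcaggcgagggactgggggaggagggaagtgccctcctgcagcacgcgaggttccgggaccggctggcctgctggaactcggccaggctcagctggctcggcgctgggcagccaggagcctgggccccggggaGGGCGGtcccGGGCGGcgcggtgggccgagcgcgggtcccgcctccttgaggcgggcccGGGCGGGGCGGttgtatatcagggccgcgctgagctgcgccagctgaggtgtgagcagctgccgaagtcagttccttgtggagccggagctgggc
CDKN2B: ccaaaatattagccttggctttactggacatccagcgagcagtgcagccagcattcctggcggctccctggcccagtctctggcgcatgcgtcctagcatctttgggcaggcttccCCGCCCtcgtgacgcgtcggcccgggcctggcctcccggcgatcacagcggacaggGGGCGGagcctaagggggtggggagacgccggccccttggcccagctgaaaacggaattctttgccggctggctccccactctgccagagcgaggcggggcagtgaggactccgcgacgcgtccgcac
The CDKN1A window held 4 GC boxes, 2 of them overlapping, and the CDKN2B window held 2. A GC box was present in 45% of all 35116 windows of this length. In neither window was there an E2F word (TTTGGCGC, TTTGCCGC, TTTCGCGC or TTTCCCGC), a CHR element (TTTGAA) or a TATA box (TATAAA), searched on both strands. Windows were found for 9 of the 10 genes, all but CDKN1C, and that of RB1 starts at chr13:48476200, inside the gene and far from its annotated start.

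CDKN2C, which encodes p18 and lies at chr1:50960745-50974634 (plus strand), stood highest in Prol. Prol held 6.02, 7.32 and 7.33 CPM and Sen (IR) 1.85, 1.88 and 2.24, a 3.48-fold fall (log2 −1.80, SE 0.17, adjusted p = 1.21e-08) that was the largest of the 10 genes on irradiation. The 12 CCCP-treated libraries held from 1.52 to 3.23 CPM, all far below Prol, with 37 to 126 counts each. Sen (IR) + CCCP, at 2.48, 3.18 and 3.23 CPM, was 1.49-fold above Sen (IR) (log2 0.58, SE 0.19, adjusted p = 0.0104). Acetate gave 2.11, 2.24 and 2.38 CPM, below every Sen (IR) + CCCP library, without passing (log2 −0.39, SE 0.18, adjusted p = 0.0673), and it passed at −0.48 without replicate 1 of Sen (IR) + CCCP. Acetate plus mtDNA gave 1.52, 1.85 and 2.48 CPM (log2 −0.57, SE 0.19, adjusted p = 0.0129), a call lost without replicate 2 or 3 of either group (adjusted p from 0.0544 to 0.0737). mtDNA alone, at 1.83, 2.49 and 3.11 CPM, overlapped Sen (IR) + CCCP (log2 −0.26, SE 0.18, adjusted p = 0.389). Its course was most like those of ITSN1, PPP1R12B and AC108463.1 (r = 0.967, 0.951 and 0.951). An antisense gene without a symbol, absent from the count table, shares 617 exonic bases with CDKN2C (20.4% of the exonic length of CDKN2C). Whether reads were shared between CDKN2C and that gene was not tested.

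CDKN2D, which encodes p19 and lies at chr19:10566460-10569059 (minus strand), rose in small steps from 3.51, 3.56 and 3.56 CPM in Prol to 4.29, 4.51 and 5.02 in Sen (IR) and 4.65, 5.15 and 5.95 in Sen (IR) + CCCP. Acetate gave 6.77, 7.05 and 7.61 CPM, mtDNA 6.57, 6.97 and 7.20, and acetate plus mtDNA 7.98, 8.22 and 9.13. Acetate and mtDNA alone could not be ordered between themselves. Every library of the combination lay above those of both, but its difference from acetate did not pass (log2 0.23, SE 0.10, adjusted p = 0.119). The rises over Sen (IR) + CCCP were 1.37-fold with acetate (log2 0.46, SE 0.10, adjusted p = 0.000469), 1.32-fold with mtDNA (log2 0.41, SE 0.10, adjusted p = 0.00777) and 1.61-fold with acetate plus mtDNA (log2 0.69, SE 0.10, adjusted p = 3.87e-06). Irradiation raised it 1.29-fold (log2 0.37, SE 0.11, adjusted p = 0.00849), and the step with CCCP did not pass (log2 0.19, SE 0.11, adjusted p = 0.128). The irradiation call was lost without replicate 2 of Sen (IR) (adjusted p = 0.0574), and the mtDNA call without replicate 1 of Sen (IR) + CCCP (adjusted p = 0.0526), whereas the CCCP step passed without that same library (adjusted p = 0.0459). The difference between acetate plus mtDNA and mtDNA alone (log2 0.28, SE 0.10, adjusted p = 0.0185) was lost without replicate 2 of either group (adjusted p = 0.0525 and 0.0645).

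The 3 retinoblastoma family genes moved apart from one another. RB1, at chr13:48303744-48599436 (plus strand), was the steadiest of the 10 genes, with group means from 121 to 155 CPM. Libraries held 133, 137 and 137 CPM in Prol, 118, 123 and 124 in Sen (IR), 137, 141 and 142 in Sen (IR) + CCCP, 135, 138 and 139 with acetate, 139, 143 and 145 with mtDNA, and 153.9, 154 and 156 with acetate plus mtDNA. Sen (IR) lay below and acetate plus mtDNA above every other group. It fell 1.12-fold on irradiation (log2 −0.16, SE 0.04, adjusted p = 0.00129), rose 1.15-fold with CCCP (log2 0.20, SE 0.04, adjusted p = 8.87e-05) and did not pass with acetate (log2 −0.03, SE 0.04, adjusted p = 0.594) or mtDNA (log2 0.02, SE 0.04, adjusted p = 0.758). Acetate plus mtDNA exceeded acetate 1.12-fold (log2 0.17, SE 0.04, adjusted p = 0.00613). The last call was lost when genes with low counts were kept (adjusted p = 0.113), and that on irradiation when only Prol and Sen (IR) were fitted (adjusted p = 0.0581).

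RBL2, which encodes p130, the pocket protein of quiescent cells, lies at chr16:53433977-53491648 (plus strand). It held 84.4, 84.7 and 85.9 CPM in Prol, 55.6, 59.6 and 66.9 in Sen (IR) and 36.9, 36.9 and 39.2 in Sen (IR) + CCCP, so that the 3 groups descended without overlap. Acetate brought it to 69.3, 70.4 and 72.3 CPM and acetate plus mtDNA to 70.2, 75.5 and 77.0, all above Sen (IR) and below Prol. mtDNA alone, at 34.8, 35.9 and 36.7 CPM, did not raise it. The falls were 1.40-fold on irradiation (log2 −0.49, SE 0.06, adjusted p = 1.5e-07) and 1.61-fold with CCCP (log2 −0.69, SE 0.06, adjusted p = 5.16e-10), and acetate raised it 1.88-fold (log2 0.91, SE 0.06, adjusted p = 8.73e-12). With mtDNA the difference was log2 −0.07 (SE 0.06, adjusted p = 0.452), although every mtDNA library lay below every Sen (IR) + CCCP library. AKTIP, which shares 609 exonic bases with RBL2 on the opposite strand (7.51% of the exonic length of RBL2), also rose with acetate (log2 0.94, SE 0.07, adjusted p = 7.33e-11) and fell with CCCP (log2 −0.44, SE 0.07, adjusted p = 5.4e-06). On irradiation AKTIP rose (log2 0.28, SE 0.07, adjusted p = 0.00142), whereas RBL2 fell. Whether reads were shared between AKTIP and RBL2 was not tested.

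RBL1, which encodes p107, the pocket protein that cycling cells make as an E2F target, lies at chr20:36996349-37095997 (minus strand) and ran opposite to RBL2 after CCCP and after acetate. It held 18.8, 20.5 and 21.7 CPM in Prol, 13.8, 14.5 and 17.0 in Sen (IR) and 20.04, 21.42 and 22.56 in Sen (IR) + CCCP, where it was back in the range of Prol. Acetate lowered it to 12.02, 12.30 and 12.71 CPM and acetate plus mtDNA to 12.8, 13.3 and 15.6, and mtDNA alone gave 17.4, 18.6 and 21.2, overlapping Sen (IR) + CCCP. The fall on irradiation was 1.35-fold (log2 −0.44, SE 0.09, adjusted p = 0.000272), the rise with CCCP 1.42-fold (log2 0.50, SE 0.09, adjusted p = 3.71e-05) and the fall with acetate 1.73-fold (log2 −0.79, SE 0.09, adjusted p = 1.21e-07). With mtDNA the difference was log2 −0.16 (SE 0.09, adjusted p = 0.241). Like RBL1, the 6 cycling-cell genes fell on irradiation, rose with CCCP and fell with acetate. They summed to 425–437 TPM in Prol, 293–310 in Sen (IR) and 851–898 in Sen (IR) + CCCP. The sums were 305–313 TPM with acetate, 773–783 with mtDNA and 274–279 with both. By the counts, however, 3 of the 6 were higher and 3 lower in Sen (IR) + CCCP than in Prol (median log2 0.06). On the log2(TPM + 1) scale the median of all genes was 0.42 in that comparison. The part of the cycling-cell genes in the result was not tested. The genes most like RBL1 were FANCI, CKAP2L and GINS2 (r = 0.944, 0.942 and 0.938), which act in DNA repair, mitosis and replication.

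The promoter windows of RBL1 and RBL2 are shown because these paralogs moved in opposite directions, with E2F words and CHR elements in capitals (RefSeq, GRCh38.p14, 5′ to 3′ on the gene's strand, chr20:37095948-37096247, minus, and chr16:53434221-53434520, plus).
RBL1: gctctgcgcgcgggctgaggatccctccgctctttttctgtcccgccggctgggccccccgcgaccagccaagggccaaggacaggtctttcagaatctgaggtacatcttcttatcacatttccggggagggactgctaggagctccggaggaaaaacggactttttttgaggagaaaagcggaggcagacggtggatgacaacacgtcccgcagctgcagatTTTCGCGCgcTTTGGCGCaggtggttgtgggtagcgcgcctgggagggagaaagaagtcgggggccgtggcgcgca
RBL2: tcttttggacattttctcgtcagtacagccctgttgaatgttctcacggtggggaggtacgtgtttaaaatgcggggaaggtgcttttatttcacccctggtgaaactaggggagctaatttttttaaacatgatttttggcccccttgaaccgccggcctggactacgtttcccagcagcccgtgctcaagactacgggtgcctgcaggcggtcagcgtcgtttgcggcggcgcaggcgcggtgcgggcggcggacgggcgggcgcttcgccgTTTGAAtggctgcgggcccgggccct
The RBL1 window held 2 E2F words, TTTCGCGC starting at −26 and TTTGGCGC at −16, counted from the start site, and no CHR element. The RBL2 window held no E2F word and 1 CHR element, which starts 24 bases after the start site. An E2F word was present in 3.31% and a CHR element in 15.2% of all 35116 windows. Neither was found in the other windows of the 10 genes, of which that of RB1 does not cover the start of the gene, and a match is a description of these letters only.

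**Figure D2:**
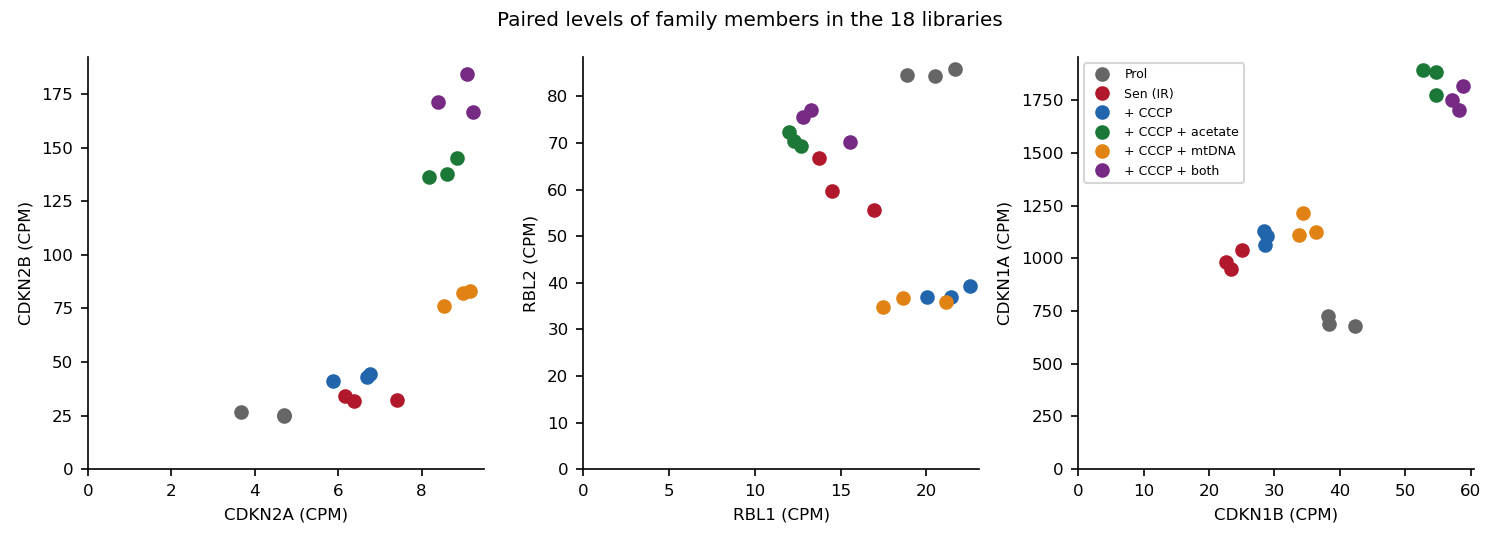
Levels in CPM of 3 pairs of genes in the 18 libraries (1 point per library, coloured by group, axes from 0): CDKN2B against CDKN2A, RBL2 against RBL1, and CDKN1A against CDKN1B. The acetate groups lie at low RBL1 and high RBL2, the Sen (IR) + CCCP and mtDNA groups at the reverse, and Prol is high in both.

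Set per length, where levels of different genes can be compared, the inhibitor transcripts were dominated by CDKN1A. The summed TPM of the 7 inhibitors was 965 ± 47.0 (SD, n = 3) in Prol, 1383 ± 48.9 in Sen (IR), 2082 ± 57.8 in Sen (IR) + CCCP, 3351 ± 84.1 with acetate, 2128 ± 90.4 with mtDNA and 3176 ± 125 with acetate plus mtDNA. CDKN1A made up from 88.7% ± 0.587 (acetate plus mtDNA) to 93.5% ± 0.234 (Sen (IR)) of that sum. Sums of TPM carry shifts of the whole scale between groups. On the log2(TPM + 1) scale the median of all genes for Sen (IR) + CCCP was 0.35 over Sen (IR) and 0.42 over Prol. By the counts CDKN1A rose by log2 0.15 (SE 0.05) with CCCP over Sen (IR). CDKN1B was the second inhibitor of Prol at 5.52% ± 0.443 and stood between 2.42% and 3.18% in the other groups. CDKN2B was at 2.46% ± 0.0441 in Prol, 2.32% ± 0.175 in Sen (IR) and 2.71% ± 0.0786 in Sen (IR) + CCCP, then at 5.15% ± 0.140 with acetate, 4.76% ± 0.409 with mtDNA and 6.62% ± 0.502 with acetate plus mtDNA, where it came second to CDKN1A in all 3 groups. CDKN2A, the usual marker, never passed 0.493% as a group mean. The TPM of CDKN2B was 6.37 ± 1.18 times that of CDKN2A in Prol, 7.10 ± 0.351 times in Sen (IR) + CCCP, 17.5 ± 0.370 times with acetate and 20.9 ± 1.39 times with acetate plus mtDNA (SD).

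Among the pocket proteins, RB1 held between 59.4% ± 0.890 (Prol) and 74.0% ± 0.644 (mtDNA) of the summed TPM. RBL2 held 31.3% ± 0.371 in Prol, 27.2% ± 2.54 in Sen (IR), 16.4% ± 0.354 in Sen (IR) + CCCP, 28.4% ± 0.416 with acetate, 15.7% ± 0.200 with mtDNA and 27.0% ± 1.04 with acetate plus mtDNA. RBL1 held 9.22% ± 0.639, 8.30% ± 0.917, 11.4% ± 0.605, 6.10% ± 0.240, 10.3% ± 0.828 and 6.21% ± 0.714 in the same order. The TPM of RBL2 was therefore 3.41 ± 0.222 times that of RBL1 in Prol, 1.44 ± 0.0511 times in Sen (IR) + CCCP and 4.66 ± 0.227 times with acetate (SD, n = 3).

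**Figure D3:**
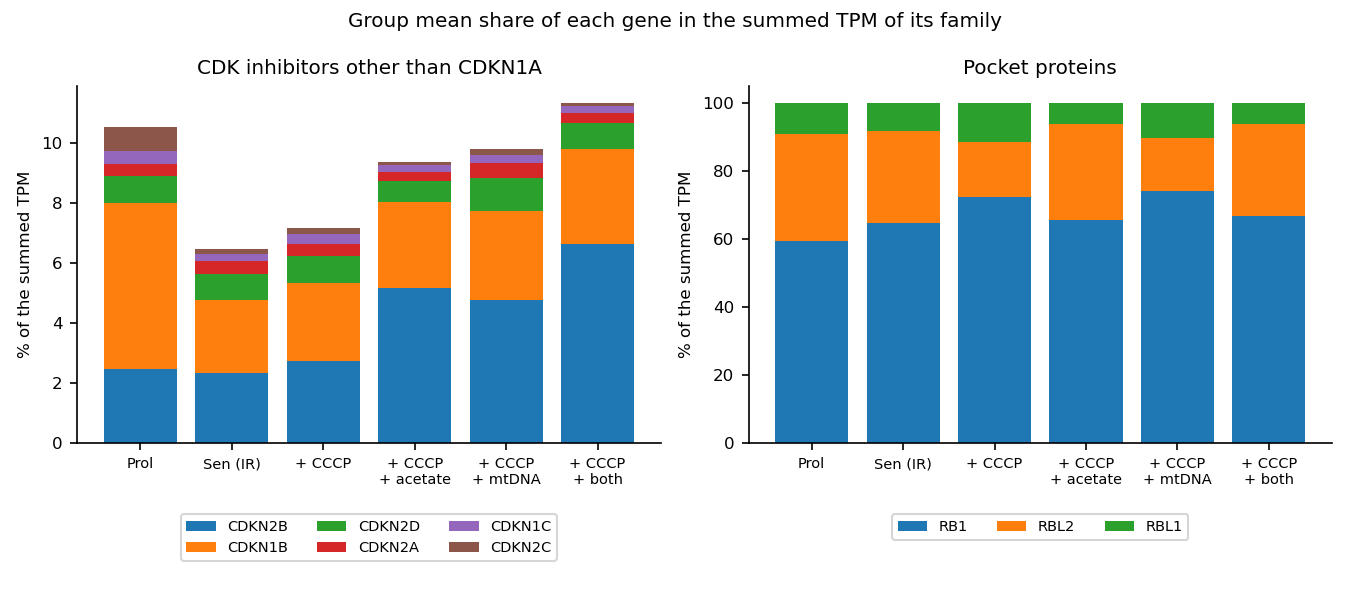
Group mean share (% of the summed TPM, y axis from 0) of the CDK inhibitors other than CDKN1A, left, and of the 3 pocket proteins, right, in the 6 groups (n = 3 libraries each). The CDKN2B share rises from 2.71% in Sen (IR) + CCCP to 5.15% with acetate, 4.76% with mtDNA and 6.62% with both, and the RBL2 share falls to 16.4% with CCCP and returns to 28.4% with acetate.

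Irradiation was called for all 10 genes, 4 higher (CDKN1A, CDKN2A, CDKN2B and CDKN2D) and 6 lower (CDKN1B, CDKN1C, CDKN2C, RB1, RBL1 and RBL2). The comparison called 56.7% of all genes, and the median log2 fold change was −0.30 for the 10 genes and −0.01 for all. Among 22 CDKs, cyclins and their kinases and phosphatases, 7 rose and 10 fell. CDK1, the mitotic kinase, fell by 1.16 on the log2 scale (SE 0.12), CDC25C by 1.10 (SE 0.25) and CCNB2 by 0.79 (SE 0.09), whereas CCNE1 (1.07, SE 0.11), CCND2 (0.57, SE 0.07) and CCND1 (0.57, SE 0.09), cyclins of G1, rose. Of 17 E2F factors, their partners and subunits of the DREAM complex, 2 rose (E2F1, 0.45, SE 0.15, and LIN37, 0.44, SE 0.12) and 8 fell, most of all E2F2 (−1.35, SE 0.38), MYBL2 (−1.33, SE 0.16) and FOXM1 (−1.12, SE 0.12). E2F2 was near the floor, with 13 to 27 counts in a Prol library and 7 to 11 in a Sen (IR) library.

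CCCP after irradiation was called for 8 of the 10 genes, 7 higher and RBL2 lower, in a comparison that called 65.2% of all genes. The median log2 fold change was 0.24 for the 10 genes and 0.03 for all. On the log2(TPM + 1) scale the median of all genes moved to 0.35, and CDKN2A stood there at 0.34 (limma adjusted p = 0.00234) and CDKN2D at 0.57 (adjusted p = 6.1e-06). The 17 E2F and DREAM genes gave 13 rises and no fall, led by E2F2 (2.58, SE 0.34), E2F8 (2.45, SE 0.20) and MYBL2 (1.67, SE 0.16). E2F2 rose from 7 to 11 counts in a Sen (IR) library to between 36 and 67 in a Sen (IR) + CCCP library. The 22 CDK and cyclin genes gave 9 rises, led by CCNE2 (1.34, SE 0.11), CDK1 (1.31, SE 0.12) and PKMYT1 (1.19, SE 0.18), and 8 falls, led by CDK7 (−0.94, SE 0.05), CCNB1 (−0.93, SE 0.08) and CCNE1 (−0.91, SE 0.11). Against Prol, Sen (IR) + CCCP had 4 genes higher (CDKN1A, CDKN2A, CDKN2B and CDKN2D) and 3 lower (CDKN1B, CDKN2C and RBL2) beside 69.2% of all genes called, and CDKN1C, RB1 and RBL1 overlapped Prol (adjusted p = 0.348, 0.338 and 0.516). On the log2(TPM + 1) scale, where the median of all genes was 0.42, these 3 genes passed as higher (CDKN1C 0.56, limma adjusted p = 0.00729, RB1 0.55, adjusted p = 2.83e-11, and RBL1 0.54, adjusted p = 3.4e-05).

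Acetate was called for 7 of the 10 genes over Sen (IR) + CCCP, 6 higher (CDKN1A, CDKN1B, CDKN2A, CDKN2B, CDKN2D and RBL2) and RBL1 lower, in a comparison that called 57.1% of all genes. The median log2 fold change was 0.43 for the 10 genes and 0.01 for all. Of the 22 CDK and cyclin genes 16 fell, among them CDK1 (−2.81, SE 0.14), CCNB2 (−2.73, SE 0.11) and CDC25C (−2.59, SE 0.32), and 3 rose (CCNH, 0.63, SE 0.07; MNAT1, 0.42, SE 0.05; CCND3, 0.24, SE 0.08), the first pair being partners of the CDK-activating kinase CDK7. Of the 17 E2F and DREAM genes 9 fell, led by E2F8 (−3.92, SE 0.23), FOXM1 (−2.92, SE 0.13) and MYBL2 (−2.64, SE 0.17), and TFDP2 (0.54, SE 0.06), E2F5 (0.45, SE 0.08) and E2F3 (0.27, SE 0.05) rose. E2F8 and CDC25C had at most 18 counts in an acetate library. All 6 cycling-cell genes fell, from PCNA (−0.82, SE 0.05) to MKI67 (−3.23, SE 0.14).

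mtDNA was called for 4 of the 10 genes over Sen (IR) + CCCP, all higher (CDKN1B, CDKN2A, CDKN2B and CDKN2D, of which 3 are INK4 genes), beside 18.1% of all genes. The CDK and cyclin genes gave 1 rise (CCND3, 0.38, SE 0.08) and 1 fall (CCNE2, −0.36, SE 0.10) of 22, and the E2F and DREAM genes 2 rises (E2F7, 0.52, SE 0.08, and LIN52, 0.23, SE 0.06) and 1 fall (TFDP2, −0.19, SE 0.06) of 17. TOP2A was the only 1 of the 6 cycling-cell genes that passed (−0.32, SE 0.10). Acetate plus mtDNA was called for all 10 genes over Sen (IR) + CCCP, 8 higher and 2 lower (CDKN2C and RBL1), beside 61.7% of all genes. RB1 (log2 0.14, SE 0.04) lost this call when genes with low counts were kept (adjusted p = 0.0858). It also lost the call on the log2(TPM + 1) scale (0.01, limma adjusted p = 0.782). CDKN1C lost the call by the DESeq2 Wald test (adjusted p = 0.057) and on the log2(TPM + 1) scale (limma adjusted p = 0.179). Against mtDNA alone acetate plus mtDNA was called for 8, 7 higher and RBL1 lower (log2 −0.46, SE 0.09), beside 57.4%, with CDKN2A at log2 0.00 (SE 0.10) and CDKN2C at −0.31 (SE 0.20) not passing. Against acetate alone it was called for CDKN2B and RB1 only, both higher, beside 12.6% of all genes. The comparisons with Sen (IR) + CCCP share the same 3 control libraries.

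**Figure D4:**
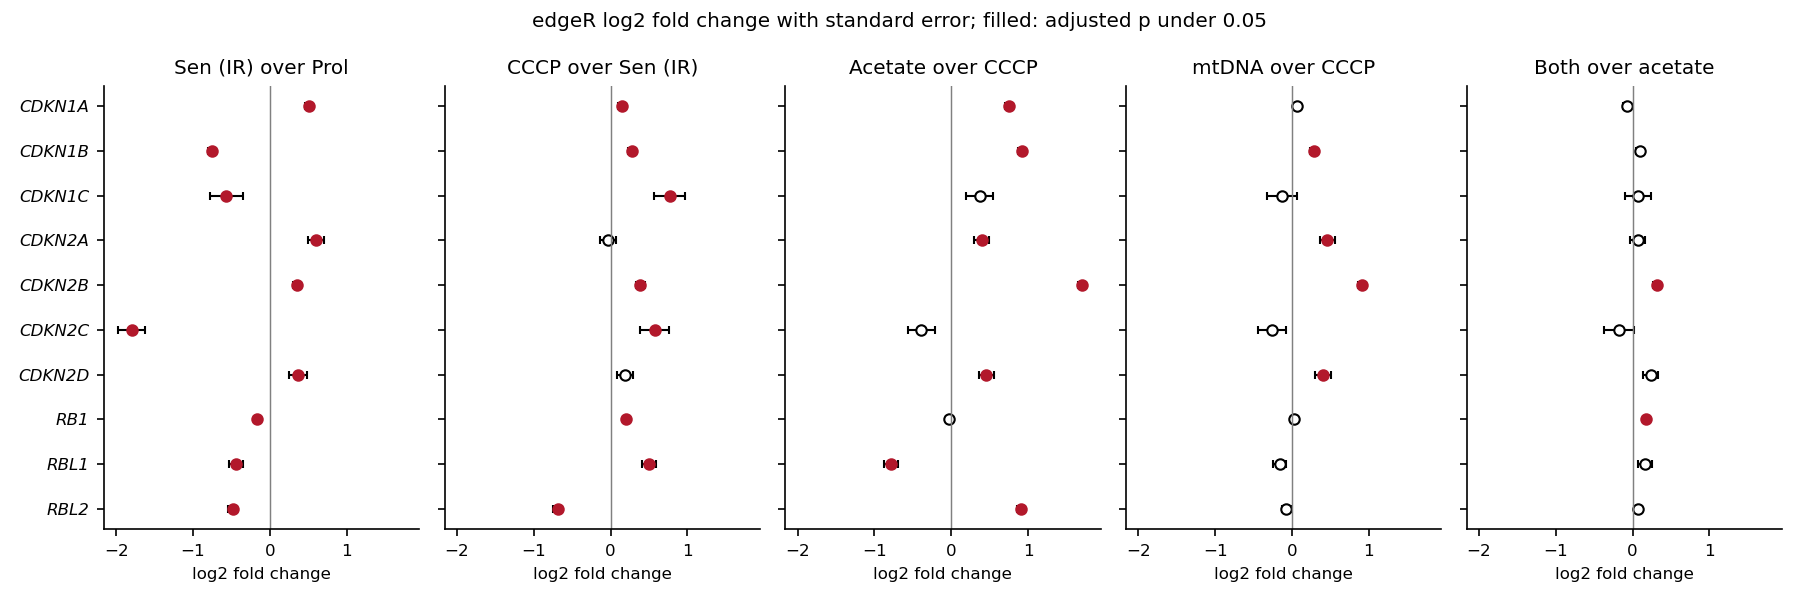
edgeR log2 fold change (x axes) of the 10 genes in 5 comparisons, with bars for the standard error and filled points for an adjusted p under 0.05. CDKN2B lies farthest to the right with acetate (1.71) and with mtDNA (0.91), CDKN2C farthest to the left on irradiation (−1.80), and RBL1 and RBL2 change sides between CCCP and acetate.

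Of 17 genes known to control the transcription or turnover of CDK inhibitors, 2 rose (FOXO1, 1.80, SE 0.55, and MDM2, 0.20, SE 0.05) and 7 fell on irradiation, beside 56.7% of all genes called. FOXO1 was near the floor, with 2 to 3 counts in a Prol library and 5 to 14 in a Sen (IR) library. With CCCP over Sen (IR) 10 rose and 5 fell, beside 65.2% of all genes called. ID1, an inhibitor of the ETS and E-protein factors that act on INK4 promoters, rose by 4.14 on the log2 scale (SE 0.32), DTL, an adaptor of the ligase that degrades p21, by 1.76 (SE 0.11) and FOXO1 by 1.41 (SE 0.36), and the Polycomb subunit CBX7 (−0.58, SE 0.12) and ETS1 (−0.54, SE 0.05) were among the falls. With acetate 5 rose and 7 fell, beside 57.1% of all genes called. CBX7 (1.59, SE 0.11), ETS1 (0.75, SE 0.05) and ID1 (0.52, SE 0.21) then rose most, and DTL (−2.31, SE 0.12), the Polycomb methyltransferase EZH2 (−0.96, SE 0.08) and MYC (−0.73, SE 0.07) fell most. With mtDNA 6 rose, led by MYC (0.48, SE 0.07), ETS2 (0.31, SE 0.05) and MDM2 (0.26, SE 0.05), and SKP2, which marks p27 for degradation, fell (−0.27, SE 0.06). The comparison with mtDNA called 18.1% of all genes.

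In the order of the 6 group levels, neighbours that could not be told apart beyond their spread were few for CDKN1A, where Sen (IR) + CCCP met mtDNA (adjusted p = 0.43) and acetate plus mtDNA met acetate (adjusted p = 0.36), and for CDKN1B, where only acetate and acetate plus mtDNA did not differ (adjusted p = 0.205). CDKN2A fell into 3 levels, Prol, then Sen (IR) with Sen (IR) + CCCP (adjusted p = 0.789), then the 3 treated groups (adjusted p from 0.581 to 0.993). CDKN2D ran from Prol through Sen (IR) and Sen (IR) + CCCP (adjusted p = 0.128) to mtDNA and acetate (adjusted p = 0.673) and acetate plus mtDNA, which did not pass over acetate (adjusted p = 0.119). CDKN2C was highest in Prol, and below it the 4 CCCP-treated groups and Sen (IR) overlapped in part, with Sen (IR) + CCCP above Sen (IR) and acetate plus mtDNA. For RBL1 the upper level held Prol, Sen (IR) + CCCP and mtDNA (adjusted p from 0.241 to 0.516). Below it lay Sen (IR), acetate plus mtDNA and acetate. Acetate was lower than Sen (IR) without overlap (log2 −0.28, SE 0.09, adjusted p = 0.00966). Acetate plus mtDNA could not be told apart from Sen (IR) (adjusted p = 0.262) or from acetate (adjusted p = 0.273). RBL2 was highest in Prol, then in the acetate groups (adjusted p = 0.433 between them), then in Sen (IR), and lowest in Sen (IR) + CCCP and mtDNA.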

How the data were processed

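RNA of IMR90 fibroblasts was sequenced with paired reads in 18 libraries, 3 for each of 6 groups. Per the submitters' processing notes and the study's methods, the authors used Trimmomatic 0.36 for trimming, STAR 2.5.2b for alignment to GRCh38, and featureCounts of Subread 1.5.2 to count uniquely placed reads in the exons of each gene. The authors deposited raw counts and, for the same genes, TPM. The methods state that stranded libraries were counted by strand; whether these libraries were stranded is not given in the sources used here. Libraries were assigned to groups by their titles, and 0 columns were left without a sample. The transgene of the mitochondrial clearance line and 1 gene of the lists are not reported here.

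From the deposited counts, edgeR 4.0.16 in R 4.3.3 fitted 6 group means to all 18 libraries (TMM, filterByExpr, quasi-likelihood test, no block) and left 16994 of 57500 genes. The common biological coefficient of variation was 0.0644. The edgeR fit was tested on simulated counts for Sen (IR) over Prol, and the other steps were not. The interaction is the effect of acetate with mtDNA minus that without. Alternatives were DESeq2 1.42.0 (Wald test, size factors, and a rule of nominal p 0.05 with an absolute log2 fold change of 0.5), limma 3.58.1 on log2(TPM + 1), other filters, only the groups compared, a replicate block and each library left out. TPM served for shares within a family.

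The 10 genes and the gene lists were chosen with earlier results of these data known. All 10 were to be named, with up to 3 rises and 3 falls of each list per comparison and the 3 genes most correlated with 6 of the 10. AKTIP was named after the annotation showed its overlap with RBL2. Positions are from GENCODE (GRCh38), promoter windows from RefSeq (GRCh38.p14). Depth was 24624886 to 46224280 counts per library (median 29620505.5), and CDKN1C, CDKN2A, CDKN2C and CDKN2D had between 37 and 410 counts in a library.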

Additional observations from a re-analysis of the deposited data

Results flagged for a closer look

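The effect of acetate on CDKN2B differed between cells with and without transfected mtDNA, by a test of the interaction itself (−0.59 on the log2 scale, SE 0.07, edgeR adjusted p = 0.000117). Acetate raised CDKN2B in 3 of 3 libraries above every library of its control in both settings, by log2 1.71 without mtDNA and by 1.11 with it, and the CPM gained by acetate plus mtDNA (131) was close to the sum of the 2 single gains (135).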

How the results depend on the processing

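Counts of the 10 genes called stayed within 1.5 times of their value under other size factors, a stricter filter, a fit to only the groups compared, limma on TPM and each library left out. Without a filter on low counts, acetate plus mtDNA over acetate called 1 gene (CDKN2B) in place of 2. The DESeq2 rule with a fold limit called 5 on irradiation, 3 with CCCP over Sen (IR), 1 with mtDNA, 0 for acetate plus mtDNA over acetate and 5 over mtDNA, since it drops changes under its limit, and the DESeq2 Wald test called 2 interactions (RB1 higher, CDKN2B lower). Signs turned on the log2(TPM + 1) scale for CDKN2A with CCCP over Sen (IR) (0.34), CDKN1B in Sen (IR) + CCCP over Prol (0.038), CDKN1A with mtDNA (−0.0099), RB1 with mtDNA (−0.051) and CDKN2A for acetate plus mtDNA over mtDNA (−0.054). On that scale the median of all genes stood at 0.35, 0.42, −0.06 and −0.06 in these comparisons. Of these only CDKN1B had passed by the counts, a call it lost there (adjusted p = 0.441), and only CDKN2A with CCCP over Sen (IR) passed there. Beside these, of 90 differences 5 lost their call without a filter, 4 with limma on TPM, 3 in a fit to only the groups compared and 1 by the DESeq2 Wald test, all in CDKN1A, CDKN1C, CDKN2D and RB1. Limma on TPM gained 6 further calls, in CDKN1C, RB1 and RBL1 for Sen (IR) + CCCP over Prol, CDKN2D with CCCP over Sen (IR), and CDKN2C and RB1 with acetate.

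Replicate numbers did not pair the libraries (correlations of same-numbered libraries from −0.170 to 0.0717, none over 0.1). A replicate block moved the interaction calls from 112 to 123 genes and changed no call of the 10, with CDKN2A for acetate plus mtDNA over mtDNA at −0.00112.

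With 1 library left out, signs turned only in differences that had not passed: from −0.078 to 0.057 for CDKN2A with CCCP over Sen (IR), −0.040 to 0.37 for CDKN1C in Sen (IR) + CCCP over Prol, −0.020 to 0.0090 for RB1 with acetate, −0.29 to 0.11 for CDKN1C with mtDNA, −0.081 to 0.21 for CDKN1C and −0.013 to 0.058 for CDKN2A when acetate plus mtDNA was set against acetate and against mtDNA, and −0.041 to 0.37 and −0.16 to 0.26 for the interactions of CDKN1C and CDKN2C. Of 600 such differences 16 lost and 5 gained their call, all in CDKN1C, CDKN2C and CDKN2D, and the cause was not tested. CDKN1C also lost its call for acetate plus mtDNA over mtDNA (0.46 without replicate 1 of mtDNA, 0.43 without replicate 1 of the combination), and CDKN2C gained it (−0.53 without the latter).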
